A study of Mus musculus with 14 samples.

Results

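Interferon-stimulated genes are the genes that cells switch on when they sense interferon, and 36 of them were followed here across 14 arrays of mouse blood monocytes and brain macrophages. The set was given by gene symbol: the IFIT family (Ifit1, Ifit2, Ifit3, Ifit3b), the ISG15 system (Isg15, Usp18), the OAS family (Oas1a, Oas1g, Oas2, Oas3, Oasl1, Oasl2), transcription factors (Irf7, Irf9, Stat2), nucleic acid sensors (Ifih1, Ddx58, Dhx58, Zbp1, Ifi203, Ifi204), guanylate-binding proteins (Gbp2, Gbp3) and other antiviral effectors (Mx1, Mx2, Isg20, Rsad2, Ifi44, Ifi35, Cmpk2, Rtp4, Xaf1, Bst2, Trim30a, Parp14, Ly6e). Array probes were assigned to them through RefSeq accessions, which named 50 probes for 33 of the 36 genes. Mx1, Mx2 and Ifi203 had no named probe and were not analysed here. The only probe of Bst2 had too few usable spots, as described with its values, so 32 genes were tested among 21969 features, 12965 of which carried a gene symbol.

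All cells came from male mice of the strain labelled YARG, aged 12 to 16 weeks. YARG mice report arginase-1 expression through a fluorescent protein. The 4 groups were blood monocytes of mice without treatment (normal, 3 arrays, replicates 2, 3 and 4), blood monocytes taken on day 1 after traumatic brain injury (post-TBI, 3 arrays, replicates 1, 3 and 4), and brain macrophages of the same day without (Arg1-, 4 arrays) or with (Arg1+, 4 arrays) the arginase-1 reporter. Injury was by controlled cortical impact, and no array was labelled as sham surgery, so injury and the operation cannot be told apart. Cells were sorted with antibodies to CD45, CD11b, Ly6G and F4/80, and RNA was amplified before labelling. The labels do not say whether replicates were separate or pooled animals, so p-values measure the spread between these samples, part of which may be technical.

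A level is the log2 of a probe's processed signal over its array's 75th percentile, so a level of 0 is as bright as that percentile. The lowest possible level is -4.32. The 75th percentile ranged from 118 to 415 intensity units and between 50.4% and 68.7% of an array's probes exceeded the scanner software's background limit, which is called well above background here. No spot was saturated. The 14 arrays lay on 4 slides, and slides 1 to 3 each held 1 array of every group. Arg1 was at 6.43 ± 0.36 (SD, n = 3 usable arrays) in Arg1+ macrophages, at 3.18 ± 1.06 (SD, n = 4) in Arg1- macrophages, and at -3.55 ± 0.39 and -3.47 ± 0.20 (SD, n = 3 each) in normal and post-TBI monocytes. Since cells were measured in bulk, fewer cells of a type and less RNA per cell cannot be told apart.

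Type I interferons signal through a receptor pair to the kinases Jak1 and Tyk2, which activate Stat2. Stat2 and Irf9 are part of a complex that binds the interferon-stimulated response element in promoters and induces antiviral genes. Irf7 is itself induced and drives further interferon production, while Usp18 restrains the receptor. Interferon gamma has a receptor of its own and favours genes such as the guanylate-binding proteins. In macrophages and microglia this programme is known from infection and from sterile injury of the brain.

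The response element can be read in the promoters of 4 genes that the results name. The stretches printed here end at the base before the annotated start (RefSeq, GRCm38.p6), run 5′ to 3′ on the gene's strand, and show in capitals the core of the element, searched as GAAA, any 2 bases and GAAA again on either strand. Ifit3 lies at chr19:34583329-34583528 and Ifit3b at chr19:34607757-34607956, both on the plus strand, and they were the 2 genes called lower in post-TBI blood. Isg15 lies at chr4:156200819-156200918 on the minus strand and was higher in the brain than in either blood group. Gbp2 lies at chr3:142620563-142620662 on the plus strand and was highest in blood.
Ifit3: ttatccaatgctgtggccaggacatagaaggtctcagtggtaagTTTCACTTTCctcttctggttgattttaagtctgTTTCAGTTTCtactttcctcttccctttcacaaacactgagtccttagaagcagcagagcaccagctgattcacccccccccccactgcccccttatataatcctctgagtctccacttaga
Ifit3b: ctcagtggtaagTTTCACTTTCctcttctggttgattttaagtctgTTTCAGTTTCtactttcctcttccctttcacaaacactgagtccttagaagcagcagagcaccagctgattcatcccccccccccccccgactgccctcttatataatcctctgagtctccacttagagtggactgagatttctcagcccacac
Isg15: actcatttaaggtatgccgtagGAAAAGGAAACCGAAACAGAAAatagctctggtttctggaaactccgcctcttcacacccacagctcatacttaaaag
Gbp2: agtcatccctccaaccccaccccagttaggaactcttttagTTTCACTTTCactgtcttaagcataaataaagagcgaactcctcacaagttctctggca

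Ifit3 and Ifit3b each held 2 copies of the core, 34 bases apart, and Isg15 held 3 overlapping copies that begin 78, 72 and 66 bases before the start. Gbp2 held 1 copy, which begins 59 bases before the start. Of the 36 genes, 26 had a promoter in the reference table, and 14 of these 26 held the core within 250 bases before at least 1 annotated start (Ifit1, Ifit3, Ifit3b, Isg15, Oas1a, Oas1g, Oas3, Rsad2, Stat2, Gbp2, Gbp3, Bst2, Ifi203 and Trim30a). Counted by promoter, that was 42.4% of 33 member promoters, against 2.98% of all 32851 promoters. The core was not found in that window for Ifit2, Isg20, Oasl1, Oasl2, Irf7, Irf9, Ifi44, Ifi35, Ifih1, Ddx58, Cmpk2 and Xaf1, which says only that these exact letters are not there. The presence of a pattern is a description of these sequences, not evidence of binding.

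**Figure D1:**
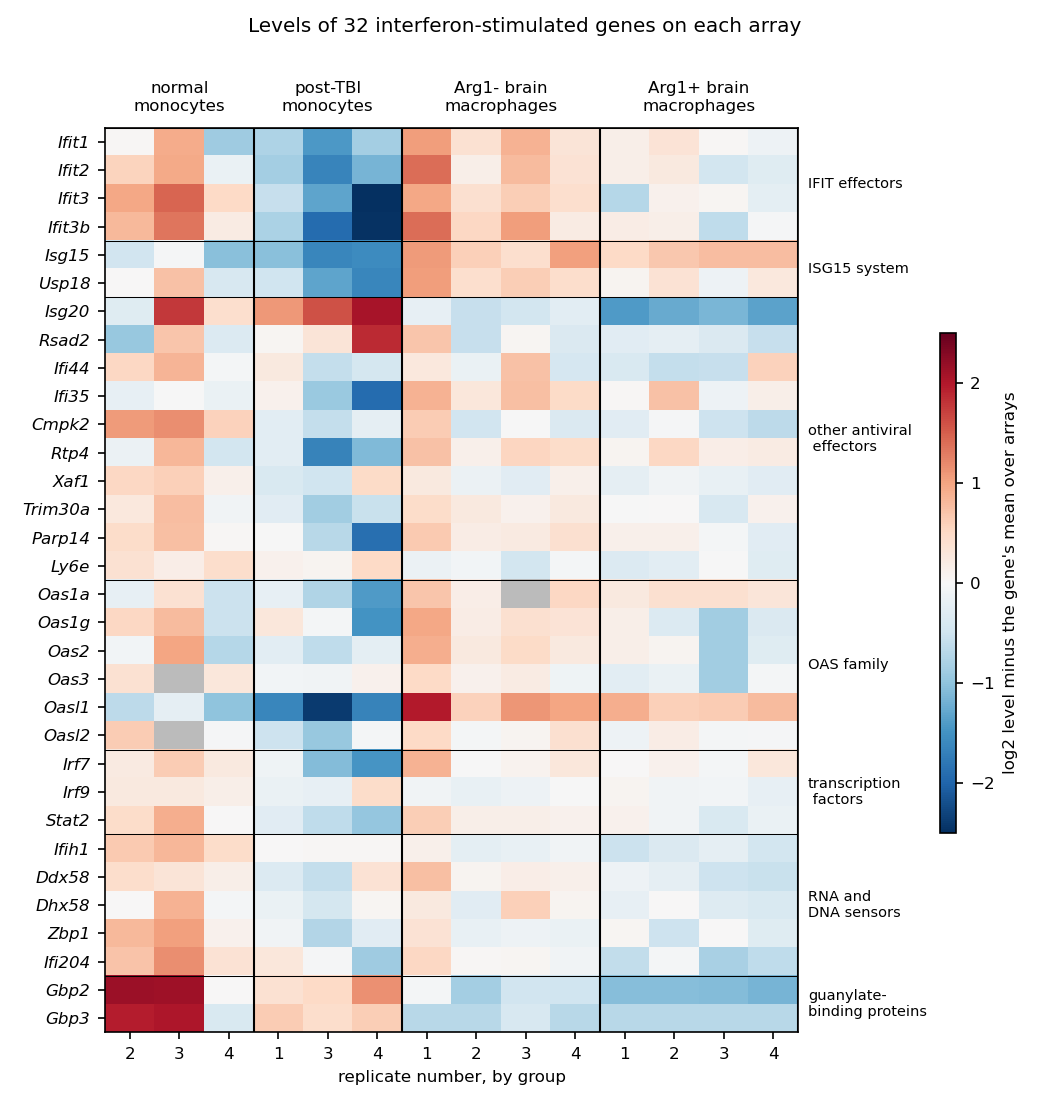
Levels of the 32 tested genes (rows, by role) on the 14 arrays (columns, by group and replicate), as log2 level minus each gene's mean over the arrays; red is above that mean, blue below, and grey a spot left out. The 3 post-TBI columns are blue for all IFIT and ISG15 system genes and red for Isg20, Gbp2 and Gbp3 are red on normal replicates 2 and 3 and mostly blue in the brain, and Isg15 and Oasl1 are red on all 8 brain arrays.

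The first comparison asked how circulating monocytes differed 1 day after injury. Of the 32 genes, 30 had lower means in post-TBI than in normal monocytes, with a median difference of -0.80 on the log2 scale, against 0.00 for all tested features. Ifit3 and Ifit3b, which encode proteins that bind viral RNA complexes, fell, and no gene rose. These 2 of 32 genes compare with 0.0501% of all features called lower and 0.114% called higher in this comparison (limma, adjusted p under 0.05). At an unadjusted p under 0.05, 20 of 32 were lower and 1 was higher, against 3.64% of all features lower. Every post-TBI array lay below every normal array for 16 of 32 genes, against 4.98% of all features.

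Ifit3 had levels of 4.32, 4.81 and 3.84 on normal replicates 2, 3 and 4, and of 2.77, 2.03 and 0.70 on post-TBI replicates 1, 3 and 4. The groups did not overlap, and post-TBI replicate 4 was the lowest. The difference was -2.49 ± 0.40 (SE), a 5.60-fold lower level, with adjusted p = 0.0238 (limma). Ifit3b, a close paralog whose probe may take up Ifit3 RNA and the reverse, had levels of -0.54, -0.01 and -1.14 in normal and -2.14, -3.26 and -3.82 in post-TBI monocytes. Its difference was -2.51 ± 0.43 (SE, adjusted p = 0.0318, limma), although only 2 of the 3 post-TBI arrays were well above background. Neither call was kept without normal replicate 2, without normal replicate 3 (Ifit3 adjusted p up to 0.122, Ifit3b up to 0.162 over the leave-outs) or without post-TBI replicate 3, and that of Ifit3b was lost without post-TBI replicate 4 as well. Both calls also ended without the filter on dim probes, with a floor of 0.2 and with only the 2 blood groups fitted, and that of Ifit3 ended with the replicate number as a block.

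The other 2 IFIT genes had the same sign without passing. Ifit2 was at 0.62, 1.02 and -0.10 in normal and -0.79, -1.59 and -1.09 in post-TBI monocytes, with no overlap (-1.67 ± 0.35 SE, adjusted p = 0.0974, limma). Ifit1 was at -0.66, 0.24 and -1.57 in normal and -1.46, -2.13 and -1.54 in post-TBI monocytes, so the groups overlapped (-1.05 ± 0.37 SE, adjusted p = 0.526, limma). All 4 IFIT genes thus had negative differences, with a median of -2.08.

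Among the regulators, Irf7, the factor that amplifies interferon production, was at 4.27, 4.67 and 4.30 in normal and 3.94, 2.97 and 2.57 in post-TBI monocytes. The groups did not overlap, and the difference was -1.25 ± 0.30 (SE, adjusted p = 0.178, limma). Stat2, a subunit of the signalling complex, differed by -1.09 ± 0.27 (SE) with no overlap, and Irf9, its DNA-binding partner, by -0.18 ± 0.18 (SE) with overlap. Usp18, which removes Isg15 from proteins and restrains the receptor, was at 0.16, 0.89 and -0.24 in normal and -0.35, -1.16 and -1.47 in post-TBI monocytes (-1.26 ± 0.31 SE, adjusted p = 0.201). Isg15, the ubiquitin-like modifier itself, had group means of 1.11 ± 0.50 and 0.20 ± 0.32 (SD, n = 3 each) and did not overlap (adjusted p = 0.300).

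The 6 genes of the OAS family, which includes sensors of double-stranded RNA, all had negative differences, from -0.36 (Oas3) to -1.27 (Oasl1), and none passed. Oasl1 was at 0.68, 1.11 and 0.33 in normal and -0.30, -1.05 and -0.33 in post-TBI monocytes, without overlap. The 5 sensors ranged from -0.46 (Dhx58, which regulates the RNA sensors) to -1.02 (Zbp1, a sensor of Z-form nucleic acid), and Ifih1 (MDA5) and Ddx58 (RIG-I) differed by -0.62 ± 0.16 and -0.50 ± 0.24 (SE). Ifih1 did not overlap, and its SD over the 3 post-TBI arrays, 0.02, was the smallest of the 32 genes. Of the effectors, Cmpk2, a nucleotide kinase, was at 1.63, 1.74 and 1.15 in normal and 0.31, -0.03 and 0.36 in post-TBI monocytes (-1.29 ± 0.27 SE, adjusted p = 0.10). Parp14, Rtp4, Trim30a, Ifi35, Ifi44, Xaf1 and Ly6e had differences from -1.28 (Parp14) to -0.10 (Ly6e), none of which passed.

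Isg20, an RNA exonuclease, and Rsad2, which makes an antiviral nucleotide (viperin), were the 2 genes with positive differences. Isg20 was at 2.82, 4.90 and 3.55 in normal and 4.21, 4.72 and 5.18 in post-TBI monocytes. Normal replicate 3 was above 2 of the 3 post-TBI arrays, and the difference of 0.95 ± 0.38 (SE) did not pass (adjusted p = 0.637), but it rose to 1.52 and was called without that array (lowest adjusted p over the leave-outs 0.0293, limma). Rsad2 was at 2.66, 4.30 and 3.27 in normal and 3.67, 3.94 and 5.47 in post-TBI monocytes, again with overlap, and its 3 probes gave 0.95, 0.38 and 0.28. The guanylate-binding proteins Gbp2 and Gbp3 differed by -0.76 and -0.64. Normal replicate 4 set them apart, with Gbp2 at -0.25 against 1.88 and 1.85, and Gbp3 at -4.00 against -1.67 and -1.60.

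**Figure D2:**
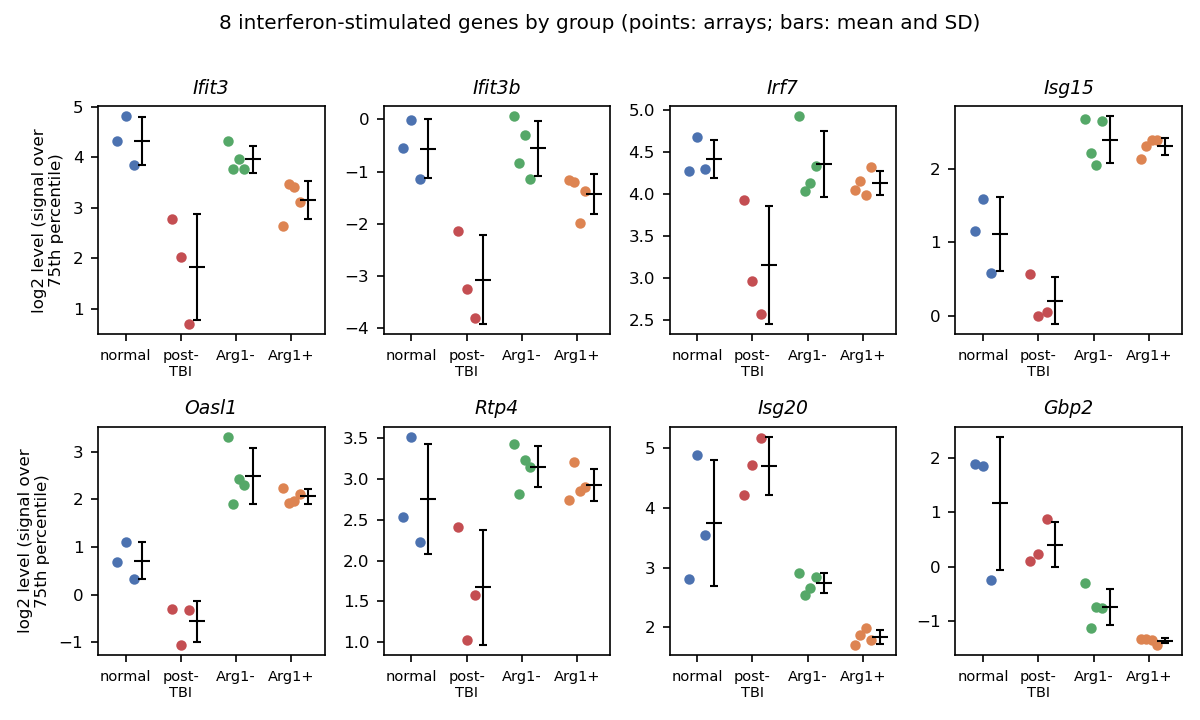
Log2 level (signal over the array's 75th percentile) of 8 genes in the 4 groups; points are arrays, and the bar beside them is the mean with its SD. Ifit3 in post-TBI monocytes lies between 0.70 and 2.77, below all normal arrays (3.84 to 4.81), while Isg15 and Oasl1 are higher on all brain arrays than on all blood arrays and Gbp2 is lowest in Arg1+ macrophages.

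Each of slides 1 to 3 held 1 normal and 1 post-TBI array. Within slides 1, 2 and 3, the median over the genes of post-TBI minus normal was -1.13, -0.46 and -1.03. Of the 32 genes, 18 were lower within every slide that held both groups, against 12.1% of all features, and 2 more (Oas3 and Oasl2) lacked a usable spot on normal replicate 3. Slide 2, with normal replicate 4 and post-TBI replicate 4, gave the smallest median and positive differences for Isg20, Rsad2, Ifit1, Oas2, Irf9, Ddx58, Dhx58, Xaf1, Ly6e, Gbp2 (1.12) and Gbp3 (0.98). Among normal arrays, replicate 3 was the highest for 27 of the 30 genes measured on all 3 arrays and replicate 4 the lowest for 25 of 30.

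Leaving out each of the 6 blood arrays in turn left 30 of 32 genes below 0 each time, and the median moved between -0.63 (without normal replicate 3) and -1.14 (without normal replicate 4). The number called ranged from 0 to 5. No gene was called without normal replicate 2 or without post-TBI replicate 3. Without post-TBI replicate 1, Ifit3, Ifit3b, Irf7 (-1.64), Usp18 (-1.59) and Parp14 (-1.70) were called lower. Without normal replicate 4, Gbp3 joined Ifit3 and Ifit3b. All features called in the same leave-outs ranged from 2 to 63.

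**Figure D3:**
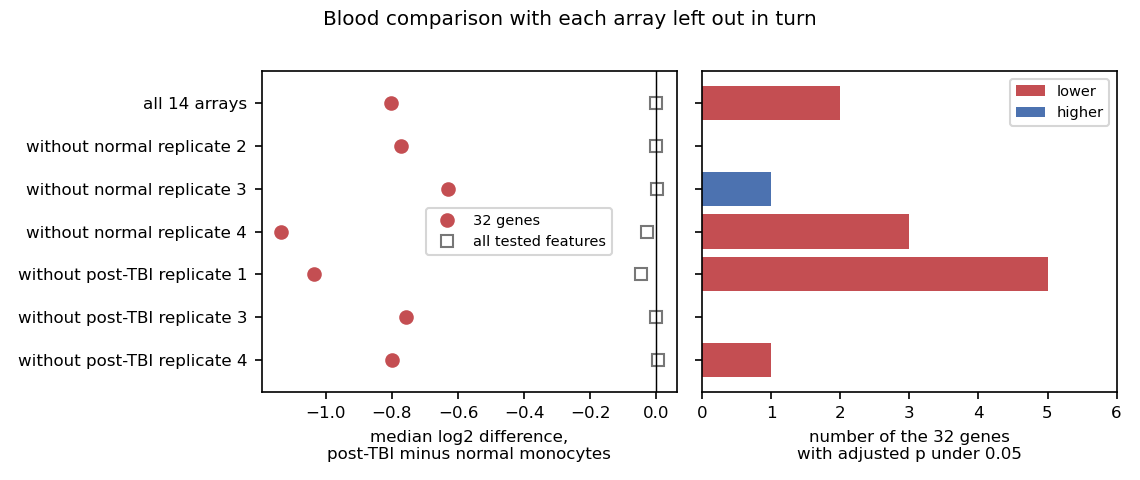
Post-TBI minus normal monocytes with all arrays and with each of the 6 blood arrays left out: on the left, the median log2 difference of the 32 genes (filled) and of all tested features (open); on the right, how many of the 32 genes passed, stacked by direction. The medians of the 32 genes run from -1.14 to -0.63 and those of all features from -0.05 to 0.00, while the count runs from 0 to 5.

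Markers of other blood cells were read in the same contrast. Of 10 platelet and red cell markers 7 were tested, without Pf4, Hba-a1 and Hbb-b1. Their summed linear level (signal over the 75th percentile) was 11.7 to 60.5 in normal and 63.3 to 116 in post-TBI monocytes, so the groups did not overlap. The median difference was 1.58, and none of the 7 passed (limma). The summed level of 13 neutrophil markers was 6.91 to 34.7 and 19.1 to 102, while their median difference was -0.29, with 8 of 13 below 0 and none called (limma). All 7 platelet and red cell markers and all 13 neutrophil markers were well above background on at least 1 blood array. The 10 tested markers of Ly6C-high monocytes summed to 295 to 391 in normal and 260 to 393 in post-TBI monocytes, and Vcan alone was called higher (1.96 ± 0.29 SE, adjusted p = 0.0128, limma). The sum of 9 plasmacytoid dendritic cell markers was 22.4 to 27.5 in normal and 4.91 to 25.9 in post-TBI monocytes, and Siglech, a defining marker on that list, was not well above background on any blood array. The median difference of these 9 was -0.05, with 3 above and 5 below 0 and none called (limma). All 7 tested B cell markers were above 0, with a median of 0.41. Their summed level was at most 5.721 in normal and at least 6.475 in post-TBI monocytes. Of 8 T cell markers 7 were above 0 (median 0.23), and of 9 natural killer cell markers 7 were below 0 (median -0.33). Of 12 Ly6C-low monocyte markers 7 were below 0 (median -0.11), as were 4 of 7 conventional dendritic cell markers (median -0.01). On these further lists no marker was called (limma). The part of these markers in the lower levels of the interferon-stimulated genes was not tested.

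The next comparisons set brain macrophages against blood. Both brain groups were compared with the same 3 post-TBI monocyte arrays, so their results share those controls. The blood comparison uses these arrays too. Low levels on them make its differences negative and those of the brain groups positive. Against post-TBI monocytes, Arg1- macrophages had 15 genes higher and 3 lower of 32, and Arg1+ macrophages had 12 higher and 4 lower. In Arg1- macrophages 17.2% of all features were called higher and 16.2% lower, and in Arg1+ macrophages 20.1% and 19.9%. The median over the genes was 0.79 for Arg1- and 0.16 for Arg1+ macrophages, with medians of -0.02 over all features in each. The Arg1+ median was 0.08 without Arg1+ replicate 1, 0.36 without post-TBI replicate 1 and 0.49 with outlier spots kept.

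The genes called higher in each brain group than in post-TBI monocytes were Ifit1, Ifit2, Ifit3, Ifit3b, Isg15, Usp18, Oas1a, Oasl1, Irf7, Ifi35, Rtp4 and Parp14. In Arg1+ macrophages Ifit3, Ifi35 and Parp14 overlapped post-TBI monocytes, and Ifi35 was called in 4 of 7 leave-outs. Oasl2, Stat2 and Trim30a passed in Arg1- macrophages (0.73, 0.88 and 0.84 on the log2 scale), and their differences in Arg1+ macrophages were 0.49, 0.50 and 0.50. The Oasl2 call was kept in 4 of 7 leave-outs, and that of Stat2 ended without post-TBI replicate 4. All 4 IFIT genes, with medians of 2.01 and 1.22 in Arg1- and Arg1+ macrophages, and both genes of the ISG15 system were called higher. The other probe of Ifit2 gave 0.11 in Arg1+ macrophages, against 1.13 for the probe shown. That of Trim30a gave 0.06 in Arg1- macrophages, against 0.84. Both calls ended with the mean or the dimmest of a gene's probes. In Arg1- macrophages the 2 probes of Ifit2 gave 1.90 and 0.91, and its call was kept. Isg15 was at 2.68, 2.22, 2.05 and 2.65 in Arg1- and 2.13, 2.31, 2.39 and 2.39 in Arg1+ macrophages. All 8 brain arrays lay above all 6 blood arrays, where it reached at most 1.59. Its differences from post-TBI monocytes were 2.19 ± 0.23 and 2.10 ± 0.23 (SE, adjusted p = 4.66e-06 and 4.34e-06, limma).

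Oasl1, an OAS-like protein that limits Irf7 translation, was at 3.31, 1.91, 2.43 and 2.31 in Arg1- and 2.25, 1.93, 1.96 and 2.12 in Arg1+ macrophages. It too was higher on every brain array than on every blood array, by 3.05 ± 0.29 and 2.63 ± 0.29 (SE) against post-TBI monocytes (adjusted p = 1.46e-06 and 3.93e-06, limma). Isg15 and Oasl1 were called in every leave-out and under every other setting tried in these comparisons. Irf7 was at 4.92, 4.04, 4.14 and 4.34 in Arg1- and 4.05, 4.16, 3.99 and 4.33 in Arg1+ macrophages, above every post-TBI array. Its call in Arg1+ macrophages ended without post-TBI replicate 3 or 4 and with normexp. Rtp4, a chaperone of receptor trafficking induced by interferon, was at 3.43, 2.81, 3.23 and 3.15, and at 2.75, 3.21, 2.85 and 2.90, again above every post-TBI array.

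Lower in both brain groups than in post-TBI monocytes were Isg20, Gbp2 and Gbp3, and Ifih1 was also called lower in Arg1+ macrophages (-0.42 ± 0.15 SE, adjusted p = 0.0342, limma). Isg20 was at 2.91, 2.55, 2.66 and 2.85 in Arg1- and 1.71, 1.87, 1.98 and 1.79 in Arg1+ macrophages. All 8 brain arrays lay below all 3 post-TBI arrays, and the differences were -1.96 ± 0.35 and -2.87 ± 0.35 (SE, adjusted p = 0.000527 and 1.16e-05, limma). Gbp2, a GTPase that acts against intracellular microbes, was at -0.31, -1.12, -0.75 and -0.77 in Arg1- and at -1.34, -1.33, -1.35 and -1.43 in Arg1+ macrophages, below every post-TBI array (0.11 to 0.87). Gbp3 was well above background on no Arg1+ array and on a single Arg1- array. It met the filter on dim probes only because of the blood arrays, where it was higher. Its post-TBI level was at least 2.06-fold higher than in Arg1+ macrophages, a bound set by the dimmest probes well above background on each array. The Gbp3 differences between brain and blood, though counted among the calls, are therefore descriptions. Some of the calls against post-TBI monocytes rested on single arrays. In Arg1+ macrophages 9 genes were called without post-TBI replicate 3 (7 higher, 2 lower), Parp14 was called in 1 and Ifih1 in 2 of the 7 leave-outs, and Gbp3 was not called in Arg1- macrophages when any array of that comparison was left out. Gbp3 in Arg1+ macrophages was not called without post-TBI replicate 1, 3 or 4. Gbp2 in Arg1- macrophages (-1.14, adjusted p = 0.0406, limma) was called in 2 of the 7 leave-outs, and that call ended with normexp, without the filter on dim probes, with a floor of 0.2 and with the slide or the replicate number as a block.

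**Figure D4:**
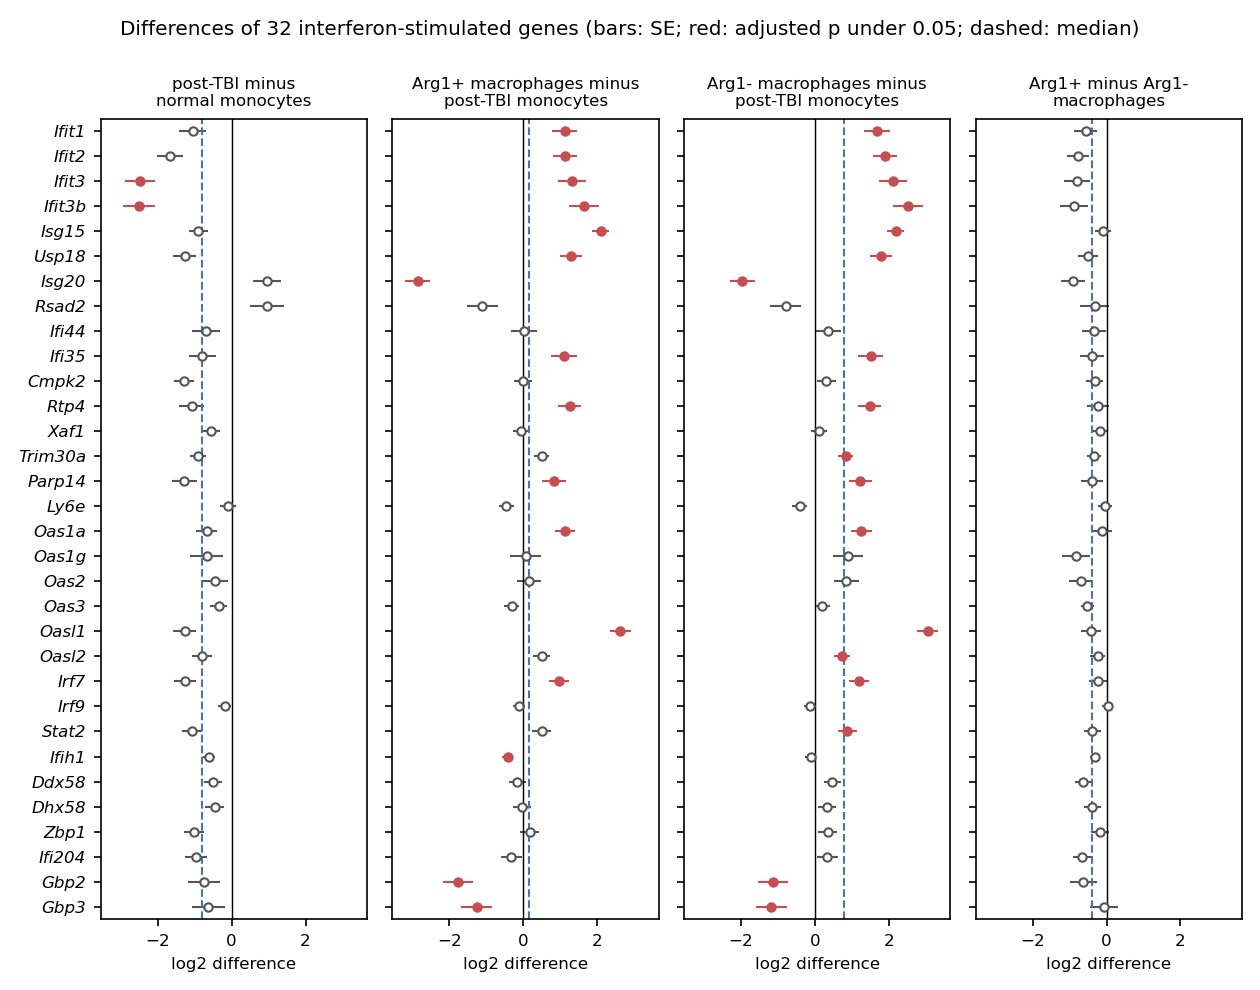
Log2 differences of the 32 genes in 4 comparisons, with SE bars; red points passed (adjusted p under 0.05) and the dashed line is the median over the genes. In blood 2 genes are red and 30 points lie below 0, against post-TBI monocytes 16 (Arg1+) and 18 (Arg1-) are red, and between the brain groups none is red.

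Against normal monocytes the brain groups looked different. In Arg1+ macrophages 2 genes were called higher and 12 lower of 32, with 19.8% of all features higher and 20.8% lower. In Arg1- macrophages 2 were higher and 5 lower, with 16.2% and 16.1% of all features. The medians over the genes were -0.55 and -0.07, against -0.03 for all features in each. Isg15 and Oasl1 were the 2 genes higher in both, Isg15 by 1.29 ± 0.23 in Arg1- and 1.20 ± 0.23 (SE) in Arg1+ macrophages and Oasl1 by 1.78 ± 0.29 and 1.35 ± 0.29 (SE).

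Cmpk2, Gbp2, Gbp3, Ifih1 and Isg20 were lower in both brain groups than in normal monocytes. For Gbp3, which met the filter on dim probes only because of the blood arrays, this is a description. Another 7 (Ifit3, Oas3, Ddx58, Xaf1, Zbp1, Ifi204 and Ly6e) were called lower in Arg1+ macrophages. The Arg1- differences of these 7 from normal monocytes ran from -0.68 (Zbp1, adjusted p = 0.0616, limma) to -0.03 (Ddx58), and none of the 7 passed between Arg1+ and Arg1- macrophages. Ifih1 was at 1.25, 0.89, 0.94 and 1.05 in Arg1- and 0.59, 0.77, 0.90 and 0.66 in Arg1+ macrophages, against 1.78, 1.95 and 1.59 in normal monocytes (-0.74 ± 0.15 and -1.04 ± 0.15 SE). Ifi204, a DNA-binding protein of the p200 family, differed by -1.27 ± 0.28 (SE, adjusted p = 0.0018, limma) in Arg1+ macrophages and was called in every leave-out. Isg20 in Arg1- macrophages overlapped normal monocytes (-1.01 ± 0.35 SE, adjusted p = 0.0379, limma) and was called in 1 of 7 leave-outs. In Arg1+ macrophages Xaf1, Ly6e, Ddx58 and Oas3 had smaller differences (-0.61, -0.56, -0.66 and -0.67) that were each lost in 3 or more of the 7 leave-outs. The larger difference of Ifit3 there (-1.17) was called in 4 of the 7 leave-outs. That call ended without the filter on dim probes and with a floor of 0.2. Without normal replicate 2 the Arg1+ count was 8 (2 higher, 6 lower), and without post-TBI replicate 4, which enters only through the shared spread, the Arg1- count was 12 (3 higher, 9 lower).

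Monocyte, neutrophil, microglial and neural markers were called in these contrasts too, where the shares of all features called are those given above. Of 12 tested Ly6C-low monocyte markers, 11 were called lower in Arg1- and 10 in Arg1+ than in post-TBI monocytes, and of 11 microglial markers 8 and 9 were called higher. Of 13 neutrophil markers 8 were called higher and 2 lower in Arg1- macrophages (median 1.80), and 2 higher and 4 lower in Arg1+ macrophages (median -0.20). Against normal monocytes 8 were higher and 2 lower in Arg1- (median 2.12) and 1 higher and 2 lower in Arg1+ macrophages (median 0.37). The summed linear level of the microglial markers was 48.8 to 67.8 in Arg1- and 58.2 to 90.7 in Arg1+ macrophages, against 23.7 to 26.5 in post-TBI monocytes, and Siglech and Slc2a5 of that list were not well above background on any blood array. Of 10 markers of neurons and glia, 3 were called higher in Arg1- and 8 in Arg1+ macrophages and 1 was lower in each. Nefl, Snap25 and Gja1 were not well above background on any blood array. The summed level of the 10 ran the other way. It was 5.23 to 7.15 in Arg1- and 5.69 to 8.52 in Arg1+ macrophages, against 20.6 to 24.0 in post-TBI and 27.4 to 29.0 in normal monocytes. The part of all these markers in the differences of the interferon-stimulated genes was not tested.

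The comparison of Arg1+ with Arg1- macrophages asked whether arginase-1 expression marks a difference in this programme. No gene of the 32 passed (limma), against 2.12% of all features called higher and 2.94% lower. The means of 31 of 32 genes were lower in Arg1+ macrophages, all but Irf9 (0.03), with a median of -0.38 against 0.00 for all features. Another Irf9 probe, left out for too few usable spots, averaged 3.68 in Arg1- and 3.06 in Arg1+ macrophages (2 arrays each). At an unadjusted p under 0.05, 10 of 32 were lower, against 9.52% of all features, and none was higher. Every Arg1+ array lay below every Arg1- array for 11 of 32 genes, against 7.52% of all features. Within every slide, 18 of 32 were lower, against 14.8% of all features, and the slide medians were -0.26, -0.93, -0.16 and -0.27.

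The largest differences were in Isg20 (-0.90 ± 0.32 SE, adjusted p = 0.140), Ifit3b (-0.88 ± 0.37 SE, adjusted p = 0.221) and Oas1g (-0.84 ± 0.38 SE, adjusted p = 0.261, limma), and the groups did not overlap for any of the 3. Ddx58 was at 2.24, 1.54, 1.64 and 1.60 in Arg1- and 1.35, 1.25, 0.96 and 0.93 in Arg1+ macrophages, without overlap (-0.63 ± 0.21 SE, adjusted p = 0.107). It was called lower with the mean or the dimmest of its 4 probes, with array weights, and without post-TBI replicate 4. Isg20 was called without normal replicate 3 and with the 2 brain groups fitted alone. Arg1- replicate 1 was the highest of its group for 26 of 31 genes, and replicate 2 the lowest for 20 of 31.

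Neutrophil and dendritic cell markers differed between the brain groups. The summed linear level of 13 neutrophil markers was 35.9 to 148 in Arg1- and 11.03 to 22.1 in Arg1+ macrophages, with 8 of 13 called lower in Arg1+ macrophages. That of 7 conventional dendritic cell markers was 5.40 to 7.12 and 0.78 to 1.21, with 6 of 7 called lower. All markers of both lists were well above background on at least 1 brain array. Their part in the lower levels of the interferon-stimulated genes in Arg1+ macrophages was not tested.

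Bst2, a tether of budding virus that was tested only with outlier spots kept, had usable spots on all 6 blood arrays, on 2 Arg1- arrays and on 1 Arg1+ array. It was at 3.26, 3.16 and 2.73 in normal and at 2.49, 1.78 and 1.75 in post-TBI monocytes, without overlap. In the brain its usable levels were 4.02 and 4.64 in Arg1- macrophages and 5.0 in Arg1+ macrophages, all above the blood arrays. At the other end, Ifi44 was near the floor, with levels from -4.32 to -2.88 and at most 2 arrays of any group well above background. Ly6e, a membrane protein that restricts virus entry, ranged from 6.57 to 7.54 and differed least in blood. For the 11 genes with 2 or more kept probes, all probes of a gene had the same sign in the blood comparison. The 4 probes of Ddx58 ranged from -0.98 to 0.52 in Arg1+ macrophages against post-TBI monocytes, so its direction there depends on the probe.

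By group mean, 19 of the 32 genes were lowest in post-TBI monocytes and 12 in Arg1+ macrophages, while 19 were highest in normal monocytes and 11 in Arg1- macrophages. The 11 were Ifit1, Ifit2, Ifit3b, Isg15, Usp18, Oas1a, Oas1g, Oas2, Oasl1, Ifi35 and Rtp4. Spread between replicates was larger for these genes than for most features in blood, with a median SD of 0.47 against 0.24 in normal and 0.43 against 0.35 in post-TBI monocytes. In the brain it was 0.27 for both in Arg1- and 0.20 against 0.30 in Arg1+ macrophages.

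The rest of the pathway was read from further lists. Of 8 tested interferon genes none passed in blood. Ifnb1, the interferon beta gene, was listed at the floor on every blood array and exceeded background on 3 Arg1- arrays and 2 Arg1+ arrays. Its brain levels were at least 2.31-fold (Arg1-) and 2.42-fold (Arg1+) above post-TBI monocytes. It met the filter on dim probes only through these brain arrays, so the difference is a description. Ifnk, the interferon kappa gene, was not well above background on any brain array and was so on 2 of 3 post-TBI arrays. It met that filter only through blood arrays. Its post-TBI level was at least 1.88-fold above Arg1- and at least 1.70-fold above Arg1+ macrophages, again as a description. Of 10 receptors and signal transducers none passed in blood. Against post-TBI monocytes, the interferon gamma receptor chain Ifngr1 was lower in Arg1- (-1.90 ± 0.23 SE) and Arg1+ macrophages (-2.30 ± 0.23 SE), as was the transcription factor Irf1 (-1.05 and -1.40). In all, 5 of 10 were lower in Arg1+ macrophages, against 19.9% of all features, and 4 in Arg1- macrophages, against 16.2%. In Arg1- macrophages 1 was higher, against 17.2% of all features. The kinase Jak2 was the higher one (1.06 ± 0.18 SE), and it was also the only one of the 10 called between the brain groups, lower in Arg1+ macrophages by 1.03 on the log2 scale (-1.03 ± 0.16 SE, adjusted p = 0.0018, limma).

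Of 16 genes of nucleic acid sensing and interferon induction and 14 of its restraint, none passed in blood. Against post-TBI monocytes, 2 of the 16 sensing genes were higher and 5 lower in Arg1-, and 2 and 6 in Arg1+ macrophages. Of the 14 genes of restraint, 1 was higher and 6 lower in Arg1-, and 3 and 7 in Arg1+ macrophages. The shares of all features are given with the next list. Tlr7, an endosomal RNA receptor, was lower than in post-TBI monocytes in Arg1- (-1.62) and Arg1+ macrophages (-1.18), as was Samhd1, which depletes nucleotides (-1.51 and -2.12). Of 43 further interferon-stimulated genes, 38 were below 0 in blood with a median of -0.54, and Tor3a, an interferon-inducible torsin ATPase, was called lower (-1.17 ± 0.21 SE, adjusted p = 0.0380, limma). Against post-TBI monocytes, Arg1- macrophages had 15 higher and 4 lower of these 43, and Arg1+ macrophages 10 higher and 11 lower. Of all features, 17.2% were higher and 16.2% lower in Arg1-, and 20.1% and 19.9% in Arg1+ macrophages. The Arg1+ counts thus lay near the shares of all features. Between the brain groups 34 of the 43 were below 0 in Arg1+ against Arg1- macrophages with a median of -0.27. There 6 were called lower and none higher, against 2.94% of all features lower, and those with the smallest adjusted p were Ifitm6 (-2.59), Epsti1 (-1.08), Ifitm2 (-0.79) and Ms4a4c (-0.71). Compared with post-TBI monocytes, the chemokine Cxcl10 was higher in Arg1- macrophages (3.15 ± 0.39 SE, adjusted p = 2.08e-05, limma). Ifitm6, an interferon-induced membrane protein, was lower than in those monocytes in Arg1- (-2.32) and Arg1+ macrophages (-4.91).

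Of 14 genes that prefer interferon gamma, 12 were below 0 in blood with a median of -0.67 and none passed. Between the brain groups Ciita, the switch of MHC class II genes, was lower in Arg1+ macrophages (-4.10 ± 0.30 SE) and Nos2, which makes nitric oxide, was higher (1.77 ± 0.32 SE, adjusted p = 0.0048, limma). Nos2 was at the floor on all blood arrays. Against normal monocytes 10 of the 14 were lower in Arg1+ and 7 in Arg1- macrophages, against 20.8% and 16.1% of all features.

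Among all other named genes, the 10 whose levels over the 14 arrays were most like the mean of the 32 (each centred on its own mean) were Phf11d (Pearson r = 0.95), Slfn9 (0.92), Trim30d (0.91), Ifit1bl1 (0.90), Dck (0.88), Gbp7 (0.88), Slc25a22 (0.86), Ifi205 (0.86), Itpka (0.82) and Irgm1 (0.82). The points share arrays, slides and group differences, so these are descriptions. Of the 10, 6 were on the lists of further or gamma-preferring genes used here. Phf11d was at 2.00 in normal, 0.75 in post-TBI, 1.90 in Arg1- and 1.19 in Arg1+ samples on average, and none of the 10 was called in blood.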

How the data were processed

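RNA of 14 sorted cell samples was amplified and hybridised to 1-colour Agilent mouse arrays, per the labels' protocols. Spots were read with Feature Extraction 10.7.3.1 per the file headers, and the deposited signals are intensities, background-subtracted within the array and not normalized between arrays. The authors' deposited series table holds log2 values whose normalization is not given in the sources used here, and it served as an alternative. The submitters' processing notes name limma.

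Processed intensities were divided by their array's 75th percentile (control probes left out), floored at 0.05 and put on the log2 scale. Outlier spots were left out, and a probe needed 2 usable arrays in every group and 3 arrays well above background. RefSeq accessions gave 24844 of 41174 probes 1 symbol, and 16330 had none. A gene was shown by the brightest of its kept probes, with their mean and the dimmest probe as alternatives. The 4 groups were fitted together with limma 3.58.1 (R 4.3.3, eBayes with trend, two-sided), with Benjamini-Hochberg adjustment over all features and calls at an adjusted p under 0.05. The fit was tested on simulated data. All 36 genes are accounted for. From the pathway lists, the rule allowed called genes to be named, up to 4 per list and comparison by adjusted p, and the 10 genes most like the mean of the set. The members and lists were chosen with earlier results of these data known. The number of arrays limits the precision.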

Additional observations from a re-analysis of the deposited data

Results flagged for a closer look

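In groups of 4 arrays, the highest or lowest array was compared with the spread of the others, and 4 of 62 gene and group combinations stood apart. Chance sets about 1 in 20 groups apart in this way. All 4 were in Arg1- macrophages. In replicate 1, Stat2 was at -0.88 with the others from -1.38 to -1.34, Ddx58 was at 2.24 with the others from 1.54 to 1.64, and Zbp1 was at -0.66 with the others from -1.22 to -1.15. In replicate 3, Gbp3 was at -4.03 while the others were at the floor of -4.32.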

How the results depend on the processing

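Over 29 alternatives no called difference of a gene took the opposite sign, but Gbp3 in both brain groups against post-TBI monocytes came to 0 with a floor of 0.2. The Arg1- minus normal median of the genes, -0.07, was 0.05 without normal replicate 3 and 0.02 without Arg1- replicate 2, with 17 genes above 0 in each against 12 with all arrays. Irf9, at -0.13 in Arg1- against post-TBI monocytes, was at 0.98 with outlier spots kept (adjusted p = 0.0137, limma). There a brighter probe, otherwise left out for too few usable spots, stands for the gene. Its usable levels were 3.45 and 3.91 in Arg1- macrophages and 2.77 and 2.12 in post-TBI monocytes. Without normal replicate 3 the 1 gene called in blood was Isg20, which was higher. In blood the 2 genes called became 0 without the filter on dim probes, 0 with a floor of 0.2, 18 (all lower) with array weights and 0 with the 2 groups fitted alone; leaving out any of the 14 arrays gave 0 to 5. With the replicate number as a block 1 gene, Ifit3b, was called. Same-numbered samples did not deviate together as a set (18 pairs, r from -0.46 to 0.41). Arrays of 1 slide did deviate together (19 pairs, median r 0.23, against -0.11 between slides). Among same-numbered pairs only normal and post-TBI replicates 4 shared a slide. Whether the numbers pair the samples can therefore not be told from these values. With the slide as a block, 2 genes were called in blood, 0 between the brain groups, 16 and 17 in Arg1+ and Arg1- macrophages against post-TBI and 13 and 6 against normal monocytes. Calls that ended there were Ifih1 and Parp14 (Arg1+) and Gbp2 (Arg1-) against post-TBI, and Xaf1 and Ly6e (Arg1+) and Isg20 (Arg1-) against normal monocytes, while Trim30a, Rsad2 (against post-TBI) and Dhx58 (against normal monocytes) were added in Arg1+ macrophages. All features called in blood, 36, became 296 with array weights, 5 with the replicate block, 15 with normexp, 20 with the authors' deposited values, 22 without the filter or with the dimmest probe, 0 with the 2 groups alone and 2 to 63 in leave-outs. Between the brain groups 1 gene was called with the mean of a gene's probes, 1 with the dimmest probe, 1 with array weights and 1 with the 2 groups alone, and 0 to 1 in leave-outs; all features, 1112, became 523 with normexp and 596 to 1800 in leave-outs. Against post-TBI monocytes leave-outs gave 9 to 17 genes in Arg1+ and 15 to 19 in Arg1- macrophages. Against normal monocytes they gave 8 to 14 in Arg1+ (9 without the filter) and 6 to 12 in Arg1- macrophages (12 with array weights). Apart from the change of probe for Irf9, the cause of these moves was not tested. Genes near background, such as Gbp3 and Ifi44, are limited by signal.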
